A study of Mus musculus with 8 samples.

Results

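The 40 genes described here are members of the nuclear receptor family, chosen by symbol from the 52195 genes of the deposited table of kidney, lung, liver and small intestine RNA. They are 40 receptors of the mouse family and not the whole of it, and the rule that picks them uses gene names, although the list was drawn up with earlier results of these data known. All 40 were found, and 31 of them passed the filter on low values, set at an FPKM of 1 or more in 2 or more libraries, as did 16328 genes in all. FPKM is a level that counts read fragments relative to gene length and library depth. The tissues came from untreated male mice of the inbred strain C57BL/6, given as C57BL/6J in the methods, at 6 to 10 weeks of age. Each tissue is represented by 2 libraries of polyadenylated RNA, 8 in all, and the mice of a pair were separate animals, so the spread between 2 libraries holds both animal and handling. The methods state that every mouse gave all 4 tissues, but no source says that a replicate number marks one animal. There was no treatment and no control group, and the design compares tissues with each other. RNA came from ground tissue that holds many cell types, so a difference between tissues in the number of cells of a type and a difference in RNA per cell cannot be told apart.

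Nuclear receptors are transcription factors that bind DNA directly and, in most cases, change their activity when a small lipid-soluble molecule enters their binding pocket. Some bind steroid or thyroid hormones or retinoic acid, some sense oxysterols, fatty acids or foreign chemicals, and others, called orphans, have no ligand that is firmly established. Many bind DNA as a pair with a retinoid X receptor (RXR), and they recruit co-activators or co-repressors that set the activity of the target gene. In liver and intestine the family is known for the control of bile acid, sterol, fat and drug metabolism.

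Promoter windows are shown first, to give the DNA around the start of some of the receptors. RefSeq windows of 300 bases, 250 before and 50 after a start, were matched for 37 of the 40 genes. At the first window of each gene the number of CG dinucleotides had a median of 19 over the matched receptors and of 7 over the 27025 genes of the table. Of the 37 receptors, 5 had 3 or fewer, against 31.9% of all genes, and these were Nr1i2, Nr5a2, Nr2f2, Nr1i3 and Nr0b2. At the other end 7 receptors had 35 or more, against 6.73% of all genes, namely Nr4a1, Rxrb, Thrb, Pparg, Nr4a2, Nr2f6 and Rxra. Rxra, Thrb and Pparg also have other windows with as few as 1, 4 and 2. The 6 bases AGGTCA, the core motif that many receptors of the family bind, or TGACCT on the other strand, were found in the first window of 5 receptors (Nr5a2, Rarg, Nr0b1, Thrb and Pparg), against 16% of all genes, and a match of letters is not a binding site. The 6 windows were picked to show both ends of this range, first 4 with few CG dinucleotides and then 2 with many. They do not stand for a tissue, since Rxra was also highest in liver, and Ppara (30), Rora (28), Ppard (27) and Esrra (25), highest in liver or small intestine in FPKM, have many as well. All are from GRCm38.p6, read 5′ to 3′ on the strand of the gene, with each CG in capitals: chr4:133553126-133553425 (+) for Nr0b2, chr16:38294775-38295074 (-) for Nr1i2, chr1:171213720-171214019 (+) for Nr1i3, chr1:136960399-136960698 (-) for Nr5a2, chr2:27676951-27677250 (+) for Rxra and chr15:101266596-101266895 (+) for Nr4a1.
Nr0b2: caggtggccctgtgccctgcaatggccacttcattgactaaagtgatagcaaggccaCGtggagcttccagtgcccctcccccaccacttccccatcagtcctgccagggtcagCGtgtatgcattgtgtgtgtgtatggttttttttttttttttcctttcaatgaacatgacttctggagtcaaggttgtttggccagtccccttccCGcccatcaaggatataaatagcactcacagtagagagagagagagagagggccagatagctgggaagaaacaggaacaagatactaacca
Nr1i2: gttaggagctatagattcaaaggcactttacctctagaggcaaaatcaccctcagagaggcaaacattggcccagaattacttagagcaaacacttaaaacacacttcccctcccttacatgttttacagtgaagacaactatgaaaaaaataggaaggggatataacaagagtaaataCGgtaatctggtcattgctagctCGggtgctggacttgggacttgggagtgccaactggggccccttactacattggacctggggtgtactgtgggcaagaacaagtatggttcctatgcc
Nr1i3: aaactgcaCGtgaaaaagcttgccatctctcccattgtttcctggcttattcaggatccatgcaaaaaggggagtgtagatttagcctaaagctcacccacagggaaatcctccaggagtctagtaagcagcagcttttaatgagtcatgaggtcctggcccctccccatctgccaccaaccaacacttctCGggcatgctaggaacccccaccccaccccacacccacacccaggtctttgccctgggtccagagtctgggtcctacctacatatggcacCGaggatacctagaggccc
Nr5a2: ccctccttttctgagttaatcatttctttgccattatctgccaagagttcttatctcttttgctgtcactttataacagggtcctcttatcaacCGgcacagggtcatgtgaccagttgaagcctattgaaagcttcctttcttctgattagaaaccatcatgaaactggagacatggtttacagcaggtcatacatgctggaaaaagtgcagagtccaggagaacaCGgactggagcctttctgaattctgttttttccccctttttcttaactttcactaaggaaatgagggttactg
Rxra: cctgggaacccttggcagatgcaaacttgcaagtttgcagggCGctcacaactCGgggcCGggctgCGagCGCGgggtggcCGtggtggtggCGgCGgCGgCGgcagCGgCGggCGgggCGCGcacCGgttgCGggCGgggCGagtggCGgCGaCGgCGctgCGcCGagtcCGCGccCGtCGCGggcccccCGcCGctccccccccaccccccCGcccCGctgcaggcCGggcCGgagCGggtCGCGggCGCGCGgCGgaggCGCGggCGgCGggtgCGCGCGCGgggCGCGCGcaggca
Nr4a1: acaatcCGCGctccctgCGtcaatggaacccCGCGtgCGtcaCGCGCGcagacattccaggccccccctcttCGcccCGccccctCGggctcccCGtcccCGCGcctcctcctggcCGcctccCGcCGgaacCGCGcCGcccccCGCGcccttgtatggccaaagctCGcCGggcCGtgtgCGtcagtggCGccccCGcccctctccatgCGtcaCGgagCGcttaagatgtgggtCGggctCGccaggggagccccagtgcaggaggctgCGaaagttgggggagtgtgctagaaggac
The first 4 windows hold between 2 and 3 CG dinucleotides each, the Rxra window 55 and the Nr4a1 window 35. Whether this goes with the tissue pattern was not tested.

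The libraries held between 9164187 and 21444675 reads counted on genes, worked out from the spacing of low FPKM values, and 3 reads, taken as the floor, correspond to an FPKM between 0.00937 and 0.289 depending on the receptor and the library. Floors cover counting error only. The labelled tissues matched their markers, with summed FPKM of 6 listed genes at 7747 and 10930 in small intestine for the intestinal list, 60315 and 74189 in lung for the lung list, 1932 and 1371 in kidney for the kidney list, and 53845 and 49812 in liver for the liver list. Mitochondrial genes and their pseudogenes took 22.8% to 68.4% of the summed FPKM, least in lung and most in kidney, and their part in the shifts that follow was not tested beyond the alternative without them. Over all genes tested, the median log2 difference was largest for lung (0.82) and lowest for liver (-0.72), with -0.34 for kidney and -0.01 for small intestine. Median-of-ratios scaling, which divides each library by a typical ratio over its genes, brought it to -0.02 for lung, -0.13 for liver, -0.11 for kidney and -0.06 for small intestine. Counts of receptors are given under both scalings, and list counts are as deposited unless the scaled count stands beside them.

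The 40 receptors together summed to an FPKM of 235 and 260 in small intestine, 252 and 250 in liver, 257 and 244 in lung, and 165 and 140 in kidney. Between 19 and 23 of them reached 1 and between 5 and 9 reached 10 in a library. Among the 40, the most abundant receptor differed by tissue. It was Nr1h2 in both lung libraries, Nr0b2 in both liver libraries and Esrra in both small intestine libraries, while the kidney libraries had Esrra in replicate 1 and Nr2f1 in replicate 2. Of the 31 receptors tested, 27 differed among the 4 tissues (limma F test, Benjamini-Hochberg adjusted over all genes), where 90.9% of all genes did, so most receptors differed but so did most genes. Thrb, Nr2c2, Nr2f1 and Nr2f6 were the receptors that did not pass. In the text that follows, a receptor is called higher or lower in a tissue when its level on the log2(FPKM + 1) scale differed by more than 1 from the mean of the other 3 tissues, with an adjusted p below 0.05. This scale understates the differences of low genes.

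**Figure D1:**
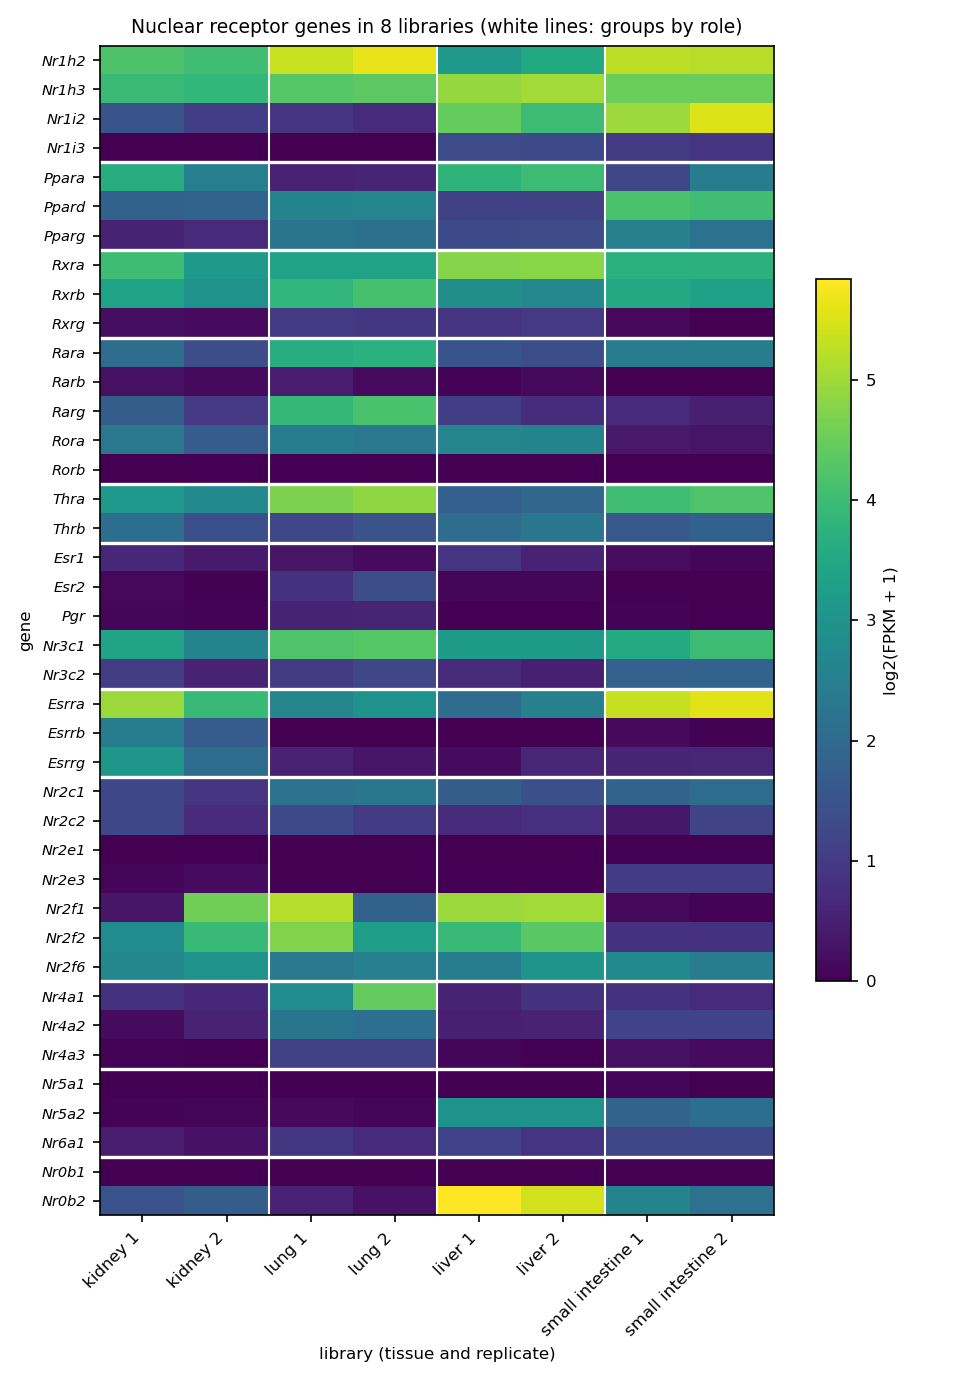
Each cell is the log2(FPKM + 1) of a receptor gene (rows, grouped by role) in a library (columns, tissue and replicate). Nr0b2 stands out in both liver libraries, Esrra in kidney and small intestine, and Nr2f1 changes from library to library within kidney and within lung.

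In liver, 9 receptors were called higher and 7 lower, where 6.56% and 32.7% of all genes were called. With median-of-ratios scaling the counts were 11 and 3, against 12.3% and 13.9% of all genes. The receptors called higher under both were Nr1i2, Nr1i3, Ppara, Rxra, Rora, Nr2f1, Nr2f2, Nr5a2 and Nr0b2, and Nr1h3 and Thrb were added by the scaling. In small intestine, 3 were called higher (Nr1i2, Ppard and Esrra) and 4 lower (Rarg, Rora, Nr2f1 and Nr2f2), against 13.7% and 11.3% of all genes, and the same 7 were called after scaling, against 13.0% and 11.7%. Without small intestine replicate 1, 6 receptors were called higher there.

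In kidney, 2 receptors were called higher (Esrrb and Esrrg) and 4 lower (Nr1i2, Pparg, Nr5a2 and Nr0b2), against 8.65% and 16.1% of all genes. Scaling kept these 6 and added Ppara and Esrra to the receptors called higher, which made 4 and 4, against 11.5% and 12.1%. Without kidney replicate 2, 4 were called higher, and without kidney replicate 1, 7 were called lower. In lung, 8 were called higher (Nr1h2, Rara, Rarg, Thra, Nr2f2, Nr4a1, Nr4a2 and Nr4a3) and 5 lower (Nr1i2, Ppara, Esrra, Nr5a2 and Nr0b2), against 40.7% and 8.26%. Only Rarg and Nr4a1 of the 8 were called after scaling, when 2 were higher and 10 lower, against 14.7% and 16.0% of all genes. An exact permutation test over the libraries, run for calls whose groups did not overlap, does not pass for all of them. Its two-sided p was 0.143 for Rora in liver and Nr5a2 in kidney, 0.107 for Nr1h2 in lung, Rarg in small intestine and Esrra in liver, and 0.0714 for Nr1i2, Thra and Nr0b2 in lung and for Ppara and Ppard in liver. Calls entered the permutation test after their groups were seen not to overlap, which favours a small p, so it gives no independent support. Nr1i3 in liver, Esrrb and Esrrg in kidney, Nr4a1 and Nr4a3 in lung and Nr2e3 in small intestine reached FPKM 1 there alone. They passed the filter through that tissue, which limits their adjusted p-values. The 4 sets of calls share libraries, since each tissue is part of the mean the others are set against. The shares of all genes above are the ones to set beside the list counts that follow.

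**Figure D2:**
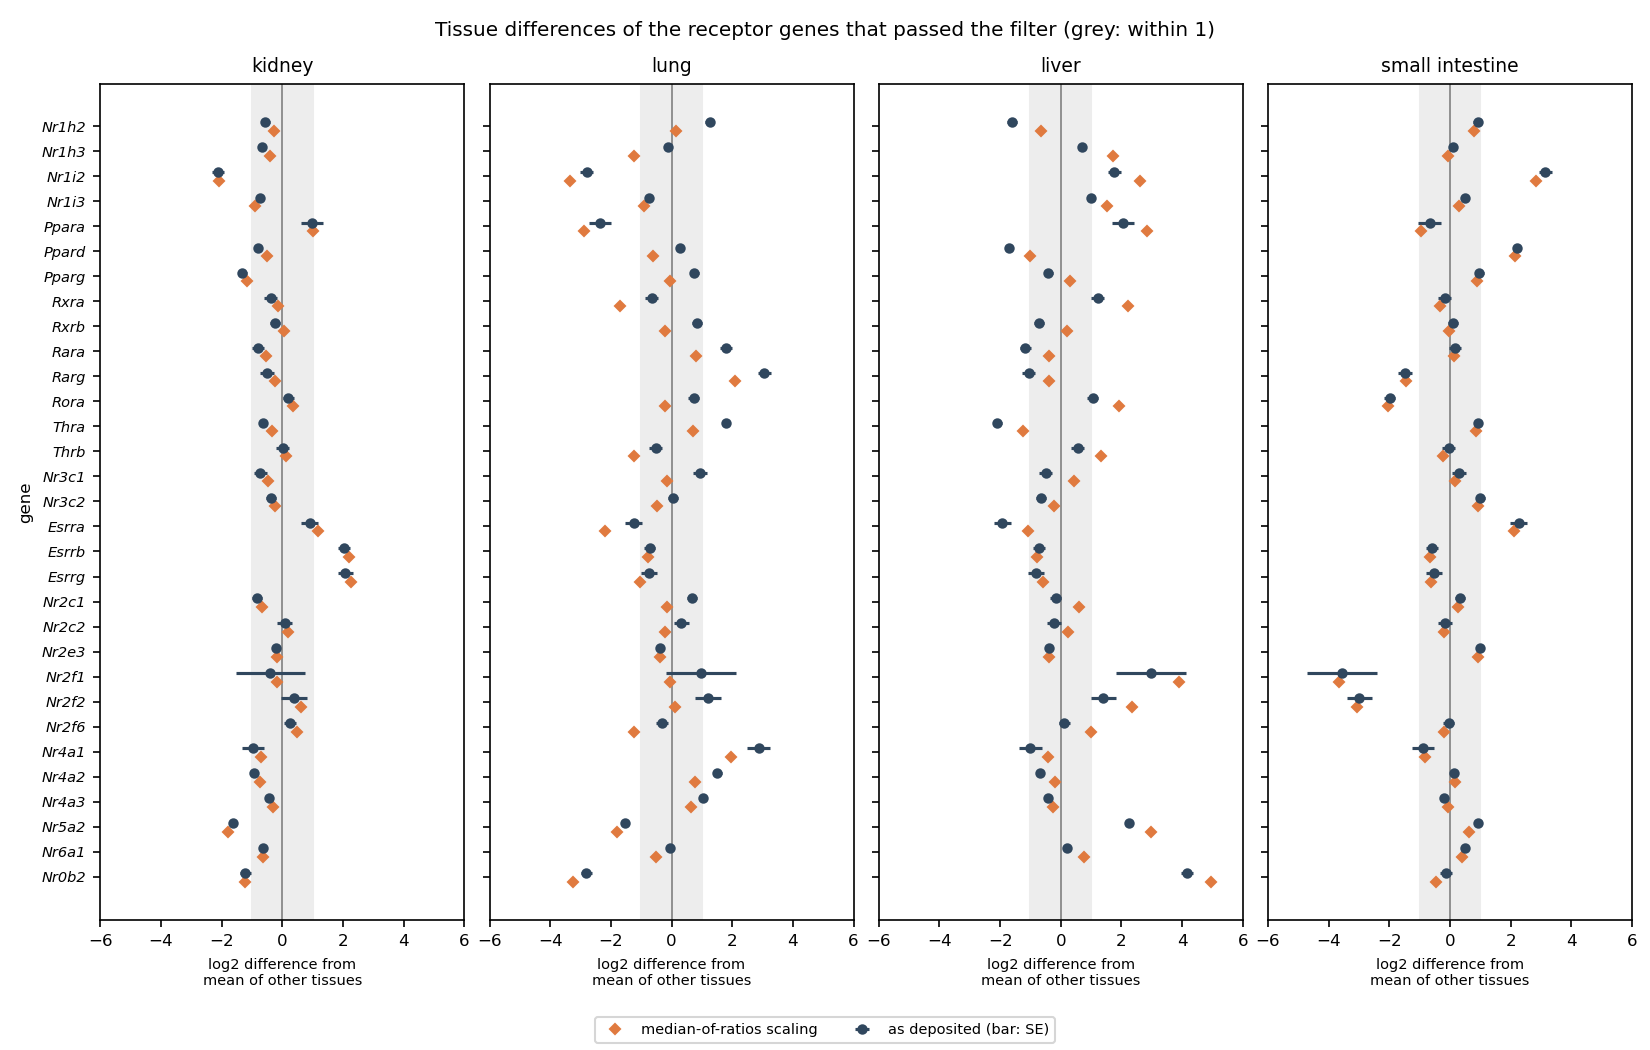
Points give the log2 difference of a receptor in the named tissue from the mean of the other tissues, in log2(FPKM + 1), for the 31 receptors tested, as deposited (circles, bars are standard errors) and after median-of-ratios scaling (diamonds). The scaling moves lung differences down and liver differences up, and leaves the large differences of Nr0b2, Nr1i2, Nr5a2, Ppard and Esrrg outside the grey band.

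Of the sensors of sterols and foreign chemicals, one pair was found at 7.71 or more in every library and the other was highest in liver and small intestine. Nr1i2 (PXR), which senses bile acids, drugs and other foreign compounds and lies at chr16:38248323-38294824, had an FPKM of 30.5 and 44.9 in small intestine, 20.8 and 14.9 in liver, 1.86 and 1.13 in kidney, and 0.842 and 0.630 in lung. The intestinal libraries were above all others and the liver libraries above kidney and lung, with no overlap. Its log2 difference was 3.14 in small intestine (SE 0.21, adjusted p = 1.41e-05 from limma) and 1.77 in liver (SE 0.21, adjusted p = 0.000212 from limma). Small intestine exceeded liver by 1.03 on the log2 scale as deposited (adjusted p = 0.0115 from limma), but by 0.18 after scaling (adjusted p = 0.627), so these neighbours did not differ beyond their spread under both scalings.

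Nr1i3 (CAR), the sister receptor of PXR that also drives drug metabolism genes, was listed at 0 in all 4 libraries of kidney and lung. Over the 8 libraries, 3 reads of it would give an FPKM of 0.0317 to 0.0742. Nr1i3 was at 0.992 and 0.840 in small intestine and 1.51 and 1.47 in liver, from 41, 42, 61 and 67 reads. Both liver libraries were above both intestinal ones, and the log2 difference in liver, 1.0, lay just past the threshold and fell to 0.99 without liver replicate 1 and 0.98 without small intestine replicate 2. With rescaling to the same sum without mitochondrial genes it was 0.95 and not called. As a further limit, 74.9% of its exon length is shared with Tomm40l on the opposite strand, and the use of strand in counting is not given in the sources used here.

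Nr1h3 and Nr1h2 encode the liver X receptors LXRα and LXRβ, which sense oxysterols and raise genes of cholesterol export. Nr1h3 was at 28.9 and 31.7 in liver, 21.6 and 21.5 in small intestine, 18.9 and 19.6 in lung, and 14.7 and 13.6 in kidney. Nr1h2 was at 39.4 and 48.7 in lung, 37.2 and 35.7 in small intestine, 17.4 and 15.4 in kidney, and 7.71 and 10.7 in liver. Liver was thus the highest tissue for the former and the lowest for the latter, and Nr1h3 made up 78.9% and 74.8% of the summed FPKM of the pair in liver, but 28.7% to 46.9% in the other 6 libraries. This share does not depend on the scaling of a library. The log2 difference of Nr1h3 in liver was 0.71 as deposited and 1.71 after scaling (adjusted p = 3.99e-05 from limma), while that of Nr1h2 was -1.61 (adjusted p = 7.05e-05) and -0.65.

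Among 10 listed target genes of CAR and PXR, 6 were called higher in small intestine, 5 in liver, 3 in lung and none in kidney, and 7 were lower in kidney, 5 in lung and 2 in liver. After scaling, 5 were higher and 1 lower in small intestine, 6 and 2 in liver, 1 and 5 in lung, and none and 6 in kidney. Of all genes as deposited, 13.7% were called higher in small intestine, 6.56% in liver and 40.7% in lung. In kidney 16.1%, in lung 8.26% and in liver 32.7% were called lower. The median log2 difference of the 10 targets was 1.45 in small intestine, 1.11 in liver, -0.74 in lung and -1.88 in kidney. In small intestine the largest were those of Cyp2c55 (4.91), Cyp2b10 (4.60) and Cyp3a11 (3.78), which encode drug-oxidizing enzymes, and of the drug efflux pump gene Abcb1a (3.19). Cyp2b10, the classical CAR target, was also at 136 and 125 in lung, where Nr1i3 was listed at 0, and at 4.44 and 1.79 in liver. Of 9 listed LXR targets, 5 were called higher in lung and 3 after scaling, against 40.7% and 14.7% of all genes. In liver 3 were higher (5 after scaling), in small intestine 3 and in kidney none, against 6.56% (12.3% after scaling), 13.7% and 8.65%. Of the same 9, 6 were lower in kidney, 4 in small intestine (3 after scaling) and 3 in lung, against 16.1%, 11.3% and 8.26% as deposited. In liver, where Nr1h3 was highest, Scd1 (3.42), Abcg8 (2.31) and Abcg5 (2.24) were those called, an enzyme of fat synthesis and the subunits of a sterol pump.

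**Figure D3:**
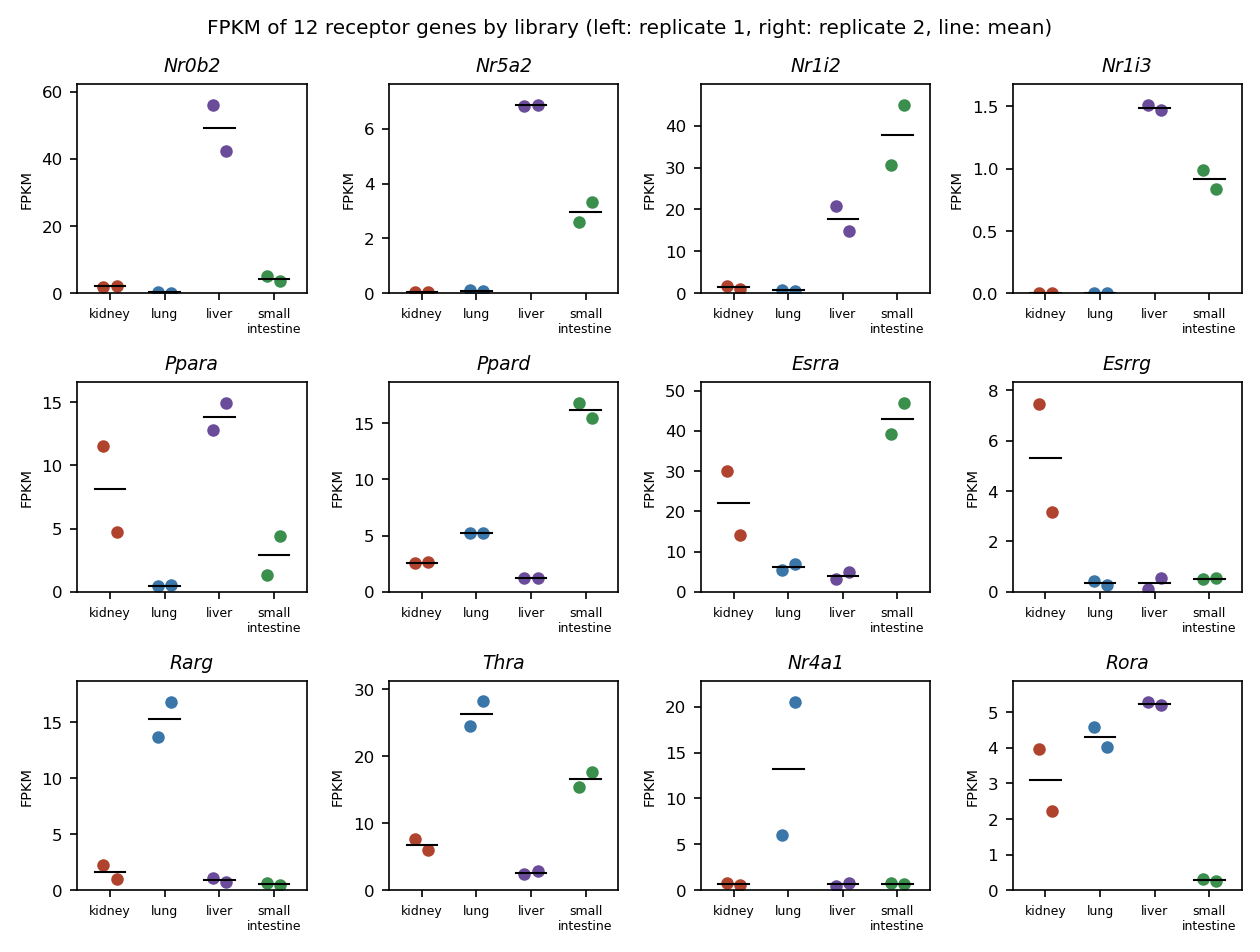
Each panel shows the FPKM of a receptor gene in the 2 libraries of each tissue (points) with their mean (line), on an axis from 0. Nr0b2, Nr5a2 and Nr1i3 are highest in liver, Nr1i2, Ppard and Esrra in small intestine, Esrrg in kidney, and Rarg, Thra and Nr4a1 in lung.

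The peroxisome proliferator-activated receptors, which respond to fatty acids, changed places between tissues. Ppara, which drives fatty acid oxidation and lies at chr15:85734983-85802819, was at 12.8 and 14.9 in liver, 11.5 and 4.76 in kidney, 1.36 and 4.44 in small intestine, and 0.454 and 0.524 in lung. The liver libraries were above all others and the lung libraries below. Its log2 difference was 2.06 in liver (SE 0.37, adjusted p = 0.00155 from limma) and -2.36 in lung (SE 0.37, adjusted p = 0.000664 from limma). Liver and kidney did not differ beyond their spread as deposited (kidney minus liver -0.81, SE 0.45, adjusted p = 0.210 from limma) and did after scaling (-1.36, adjusted p = 0.0314).

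Ppard, a broadly found receptor of lipid use at chr17:28232700-28301474, was at 16.8 and 15.5 in small intestine, 5.24 and 5.26 in lung, 2.53 and 2.64 in kidney, and 1.20 and 1.23 in liver. These 4 pairs did not overlap, and the log2 difference in small intestine was 2.22 (SE 0.13, adjusted p = 5.71e-06 from limma; exact permutation p = 0.0357, two-sided, the smallest that 2 of 8 libraries allow). After scaling, lung and liver no longer differed in Ppard (0.32, adjusted p = 0.155 from limma), while its lower call in liver (-1.71, and -1.02 after scaling) and its higher call in small intestine (2.14 after scaling) held, the former not with quantile normalization (-0.91). Pparg, the main regulator of fat storage in adipocytes and a receptor of alveolar macrophages, was at 3.75 and 3.43 in lung, 4.81 and 3.56 in small intestine, 1.48 and 1.54 in liver, and 0.505 and 0.626 in kidney, where it was called lower (-1.32, adjusted p = 0.000230 from limma), but not with quantile normalization (-0.99).

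The summed FPKM of 6 white adipocyte markers was, like Pparg, higher in lung and small intestine than in liver and kidney. It was 131 and 77.3 in lung, 54.0 and 70.4 in small intestine, 3.03 and 0.750 in liver, and 0.767 and 2.04 in kidney. Most of it came from Cfd in lung (103 and 59) and from Cidec in small intestine (32.2 and 50). In both libraries of the tissue, 4 genes were at 1 or more in lung and 3 in small intestine. Plin1 was at 0.507 and 0.26 in lung and 0.138 and 0.114 in small intestine. Lep was at 0 in kidney, liver and lung replicate 1, at 0.024 in lung replicate 2, and at 0.127 and 0.079 in small intestine. Macrophage markers summed to 427 and 364 in lung and to 7.05 to 25.6 in the other tissues, over 5 genes. The part of these cells in the Pparg values was not tested.

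Of the summed FPKM of the PPARs, Ppara took 82.7% and 84.3% in liver and 79.1% and 59.3% in kidney, and Ppard 73.1% and 66.0% in small intestine and 55.5% and 57.1% in lung. Of 12 listed PPARα targets, 8 were called higher and 2 lower in liver, 6 and 2 in kidney, 2 and 5 in small intestine, and none and 7 in lung, with medians of 1.43, 1.07, -0.82 and -1.44. Of all genes, 6.56% and 32.7% were called in liver, 8.65% and 16.1% in kidney, 13.7% and 11.3% in small intestine, and 40.7% and 8.26% in lung. The targets higher in liver included the fatty acid hydroxylases Cyp4a14 (5.25) and Cyp4a10 (4.0) and the thiolase Acaa1b (3.11). The targets called lower in liver were Pdk4, a brake on glucose oxidation, and Vnn1, which was not called there after scaling (-0.66), and both were called higher in small intestine. After scaling, 9 targets were higher and 1 lower in liver, 8 and 1 in kidney, 2 and 6 in small intestine, and none and 8 in lung.

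**Figure D4:**
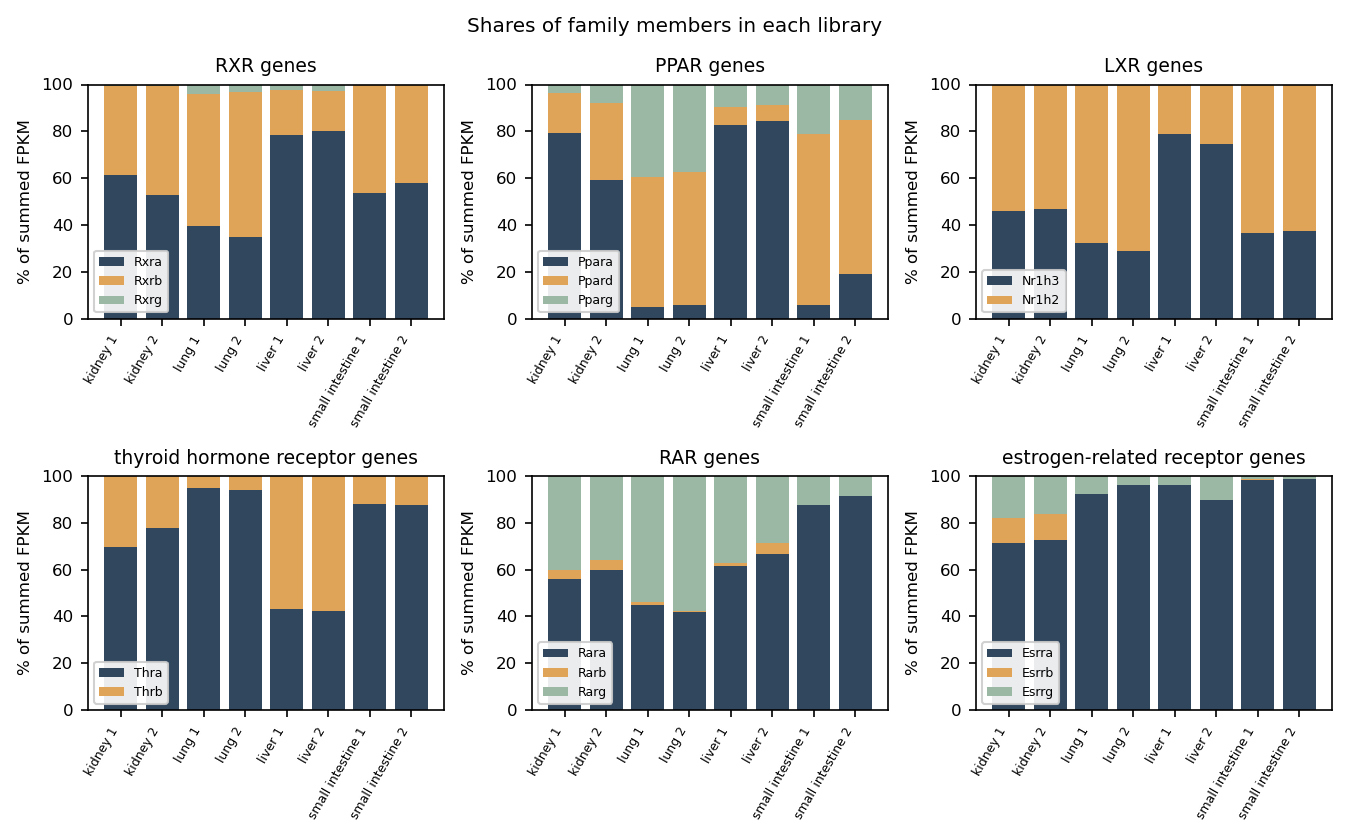
Stacked bars give the share (%) of each gene in the summed FPKM of its receptor group, in each of the 8 libraries. Liver has the highest shares of Rxra, Ppara and Nr1h3 and the lowest of Thra, and lung the lowest share of Rxra.

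The retinoid X receptors pair with most of the receptors above. Rxra at chr2:27676440-27762957, whose promoter window has the most CG dinucleotides of all those matched, was at 26.2 and 26.9 in liver, 15.3 and 7.77 in kidney, 12.2 and 12.4 in small intestine, and 9.39 and 9.30 in lung. As deposited liver was called higher, with a log2 difference of 1.22 (SE 0.22, adjusted p = 0.00145 from limma), and after scaling lung was also called lower (-1.71). In FPKM the kidney libraries spanned the range of lung and small intestine. Rxrb was at 5.71 to 16.5 in all libraries, highest in lung and lowest in liver as deposited, but the F test gave an adjusted p of 0.00413 as deposited and 0.371 after scaling. Rxrg did not pass the filter and was at 0.855 to 0.981 in lung and liver, from 18 to 26 reads, and at 0 to 0.162 in the others. Rxra made up 78.2% and 80.1% of the RXR sum in liver and 39.6% and 34.9% in lung.

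Of the retinoic acid receptors, Rarg was called higher in lung under both scalings and Rara as deposited alone. Rarg at chr15:102234938-102257517, known for roles in skin and skeletal development, was at 13.7 and 16.8 in lung, 0.624 and 0.430 in small intestine, 2.29 and 0.970 in kidney, and 1.12 and 0.707 in liver. The lung libraries were above all others under both scalings, with a log2 difference of 3.06 (SE 0.22, adjusted p = 1.12e-05 from limma) as deposited and 2.08 after scaling. Its lower call in liver, -1.06, was lost without kidney replicate 1 (-0.94), without liver replicate 2 (-0.91) and after scaling. Rara was at 11.5 and 12.2 in lung and 1.61 to 4.51 elsewhere, with a log2 difference of 1.80 as deposited and 0.81, not called, after scaling.

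Rarb did not pass the filter and reached 0.350 at most, in lung replicate 1, and 38.4% of its exon length is shared with Top2b and Gm48162. Of 5 tested genes of retinoic acid response and clearance, 2 were called higher in lung (1 after scaling), where 40.7% of all genes were called higher as deposited. Among them was the transglutaminase gene Tgm2 (2.08, and 0.95, not called, after scaling), and the retinoic acid-degrading Cyp26a1 was lower (-1.19) in lung and was called higher in liver, at 11.5 and 11.9. Over the other tissues 1 was called higher and 1 lower in liver (2 and none after scaling), none and 2 in kidney (none and 1), and none and 3 in small intestine (none and 4).

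Rora, a receptor of the clock and of lipid metabolism related to the retinoic acid receptors, was at 5.29 and 5.19 in liver, 4.58 and 4.02 in lung, 3.97 and 2.22 in kidney, and 0.311 and 0.263 in small intestine. Its low intestinal level, a log2 difference of -1.99 (SE 0.19, adjusted p = 7.88e-05 from limma), held under both scalings. Its call in liver, 1.05, was lost without kidney replicate 2 (0.95) and with rescaling to the same sum without mitochondrial genes (0.91). Liver and lung did not differ beyond their spread as deposited (lung minus liver -0.24, adjusted p = 0.361 from limma) and did after scaling (-1.58, adjusted p = 0.000110). Rorb, a receptor of the nervous system, was covered by 1 read in each of 2 libraries and by none in the other 6.

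The thyroid hormone receptors differed in balance. Thra at chr11:98740638-98769006 was at 24.6 and 28.2 in lung, 15.5 and 17.6 in small intestine, 7.59 and 5.97 in kidney, and 2.48 and 2.81 in liver, 4 pairs without overlap. Its log2 difference was -2.09 in liver (SE 0.14, adjusted p = 1.37e-05 from limma) and -1.24 after scaling, called under both, and 1.79 in lung, which was 0.72 and not called after scaling. Thrb was at 3.27 and 3.86 in liver and 1.38 to 3.32 in the other libraries, and did not differ among tissues as deposited (adjusted p = 0.0814, limma F test) but did after scaling (adjusted p = 0.000200).

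Thra made up 43.1% and 42.2% of the summed pair in liver, 69.6% and 77.9% in kidney, and 87.4% to 94.7% in lung and small intestine, so liver was the tissue in which Thrb exceeded Thra. The exons of Thra overlap those of Nr1d1, on the opposite strand, over 5.7% of their length. Of 7 listed genes of the thyroid hormone pathway, 3 were called higher and 1 lower in liver (4 and 1 after scaling), 3 and 1 in kidney, 2 and 3 in small intestine, and 1 and 2 in lung, where none was higher and 5 were lower after scaling. Of all genes as deposited, 6.56% and 32.7% were called in liver, 8.65% and 16.1% in kidney, 13.7% and 11.3% in small intestine, and 40.7% and 8.26% in lung. In lung, where Thra was highest as deposited but not after scaling (lung minus small intestine 0.64 and -0.09), Dio1, the deiodinase that makes active hormone, was called lower (-3.40), and in liver Thrsp, a classical hormone-induced gene, was at 108 and 38.4.

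No steroid receptor was called in any tissue. Nr3c1, the glucocorticoid receptor gene, was at 17.7 and 18.6 in lung, 10.8 and 14.9 in small intestine, 8.02 in both liver libraries, and 9.55 and 5.07 in kidney. The F test gave an adjusted p of 0.00897 as deposited and 0.0784 after scaling (limma). Nr3c2, the mineralocorticoid receptor gene, was at 2.54 and 2.65 in small intestine and 0.434 to 1.35 in the other libraries, with a log2 difference of 1.0 (SE 0.16, adjusted p = 0.00139 from limma) that was just under the threshold before rounding. In kidney, the classical target organ of aldosterone, it was at 1.09 and 0.473.

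Of 5 listed genes of the mineralocorticoid pathway, 3 were called higher in kidney, 3 higher and 1 lower in lung, 5 lower in liver (4 after scaling), and 1 higher and 3 lower in small intestine. Of all genes as deposited, 8.65% were called higher in kidney, 40.7% higher and 8.26% lower in lung. In liver 32.7% were lower, and in small intestine 13.7% were higher and 11.3% lower. The sodium channel genes Scnn1b, Scnn1g and Scnn1a were lower in small intestine (-2.91, -2.82 and -2.41), where Nr3c2 was highest, and the kinase gene Sgk1 was higher (1.63). Hsd11b2, which protects the receptor from glucocorticoids, was at 99.6 and 63.4 in kidney. Of 7 tested glucocorticoid targets, 4 were called higher in lung (3 after scaling) and 1 lower, against 40.7% (14.7%) and 8.26% of all genes. Log2 differences in lung were 3.25 for Dusp1, 2.5 for Tsc22d3, 2.38 for Per1 and -2.10 for Tat. Tat, an enzyme of tyrosine breakdown, was at 895 and 701 in liver. In the other tissues 1 target was higher in liver (3 after scaling), 1 higher and 2 lower in kidney, and 3 lower in small intestine. The shares of all genes were 6.56% in liver (12.3% after scaling), 8.65% and 16.1% in kidney, and 11.3% in small intestine.

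The sex steroid receptors did not pass the filter in these male mice. Esr1, the estrogen receptor α gene, was at 0.855 and 0.489 in liver, 0.594 and 0.347 in kidney, 0.232 and 0.130 in lung, and 0.149 and 0.0517 in small intestine, with 3 or more reads in all 8 libraries. Esr2 was at 0.791 and 1.6 in lung, from 26 and 67 reads, and at 0 to 0.0831 elsewhere. Pgr, the progesterone receptor gene, was at 0.503 and 0.508 in lung and 0 to 0.0655 elsewhere.

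Of the estrogen-related receptors, orphans that bind no estrogen and drive genes of mitochondrial energy production, Esrrb and Esrrg were called higher in kidney and Esrra in small intestine. Esrra at chr19:6910977-6921813 was at 39.2 and 46.9 in small intestine, 30.0 and 14.2 in kidney, 5.32 and 6.97 in lung, and 3.22 and 4.81 in liver. The kidney libraries lay below the intestinal and above the others, and the log2 difference was 2.26 in small intestine (SE 0.28, adjusted p = 0.000321 from limma) and -1.93 in liver (SE 0.28, adjusted p = 0.000491 from limma). In lung it was -1.24, and -1.07 with an adjusted p of 0.0565 (limma) without lung replicate 1. Lung and liver did not differ beyond their spread as deposited (0.52, adjusted p = 0.189 from limma) and did after scaling (-0.85, adjusted p = 0.0197).

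Esrrg at chr1:187608791-188214885 was at 7.47 and 3.16 in kidney and at 0.123 to 0.546 in the other 6 libraries. Esrrb at chr12:86361117-86521628 was at 4.51 and 2.18 in kidney, from 585 and 228 reads, at 0.106 and 0.0292 in small intestine, and at 0 in all lung and liver libraries. Over the 8 libraries, 3 reads of Esrrb would give 0.0231 to 0.0541. The log2 differences in kidney were 2.08 for Esrrg (SE 0.26, adjusted p = 0.000372 from limma) and 2.03 for Esrrb (SE 0.19, adjusted p = 8.26e-05 from limma). Both kidney libraries lay above the other 6 for each gene (exact permutation p = 0.0357, two-sided, the smallest possible). Both genes reached an FPKM of 1 in kidney alone and passed the filter through it, so neither test is independent support. Kidney replicate 1 was above replicate 2 for all 3 genes. Esrra kept 71.5% and 72.7% of the summed group in kidney and 89.8% to 98.8% elsewhere.

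Of 6 tested targets of these receptors, 4 were called higher in kidney (5 after scaling) and 2 in small intestine, and 4 were lower in lung (5 after scaling) and 3 in liver (1 after scaling, when 1 was also higher in liver and 1 lower in small intestine). Of all genes as deposited, 8.65% were called higher in kidney and 13.7% in small intestine, and 8.26% lower in lung and 32.7% in liver. The targets called higher in kidney as deposited were Acadm (2.44), of fatty acid oxidation, Atp5b (1.47), Cycs (1.45) and Idh3a (1.21), of respiration and the citric acid cycle. Ppargc1a, a co-activator that works with these receptors, was at 15.9 and 5.39 in kidney, 6.95 and 11.5 in small intestine, 2.88 and 1.40 in liver, and 1.40 and 0.891 in lung, and was called higher in kidney (1.37, adjusted p = 0.0183 from limma) and in small intestine (1.29, adjusted p = 0.0242) and lower in lung (-1.68, adjusted p = 0.00465).

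Among the NR2 orphans, Nr2f1 and Nr2f2, the COUP transcription factors of development and of venous and stromal cells, were not even between libraries of a tissue. Nr2f1 was at 30.2 and 31.5 in liver, 35.4 and 2.5 in lung, 0.275 and 22.9 in kidney, and 0.0839 and 0.0347 in small intestine. It was high in kidney replicate 2, lung replicate 1 and both liver libraries, and low in the other 4. Its log2 difference was 2.98 in liver (SE 1.15, adjusted p = 0.0440 from limma) and -3.57 in small intestine (SE 1.15, adjusted p = 0.0323 from limma). The liver call was lost with a replicate block (adjusted p = 0.0578 from limma) and when any library other than kidney replicate 2 or lung replicate 1 was left out (2.27 to 3.01, adjusted p of 0.0513 to 0.171 from limma), and the intestinal one without lung replicate 1 (-3.00), either liver library (-3.58 and -3.56) or either intestinal library (-3.60 and -3.53).

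Nr2f2 was at 14.5 and 19.1 in liver, 25.7 and 8.49 in lung, 5.98 and 14.5 in kidney, and 0.793 and 0.809 in small intestine, with the same library higher as for Nr2f1 in kidney, lung and liver but not in small intestine. Its low level in small intestine, -2.99 (SE 0.42, adjusted p = 0.000702 from limma), was called with any library left out. Its call in lung, 1.20, was lost without kidney replicate 1 (1.01), without lung replicate 1 (0.46), without either library of liver (1.14 and 1.27) or small intestine (1.20 and 1.21), and after scaling (0.11). Its call in liver, 1.40, was lost without either liver library (1.59 and 1.21). Endothelial markers, 4 genes that were all at 1 or more in every tissue, summed to 287 and 343 in lung, 17.4 and 9.25 in kidney, 9.43 and 6.44 in small intestine, and 11 and 10.5 in liver, and in lung and in kidney the library with the higher sum had the lower Nr2f2 value. Their part in it was not tested.

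Over all genes, 25 were at least 4-fold higher, on FPKM + 1, in kidney replicate 2 than in replicate 1, and 66 in lung replicate 1 than in replicate 2. Of these, 12 were in both sets, 48% and 18.2% of them, and Nr2f1 was the only receptor among them. The others, singled out after their values were seen, included genes of RNA-binding proteins, with Khdrbs1 at 6.87 and 67.7 in kidney and 119 and 13.7 in lung, and Hnrnpd at 4.56 and 41.7 in kidney and 74.9 and 15.6 in lung. In small intestine Khdrbs1 was at 8.1 and 8.34, and in liver at 65.9 and 70.9. The co-activator gene Ncoa1 was at 11 and 3.27 in lung, 8.02 and 10.1 in liver, 2.56 and 7.94 in kidney, and 1.44 and 1.69 in small intestine. What these genes share was not tested.

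**Figure D5:**
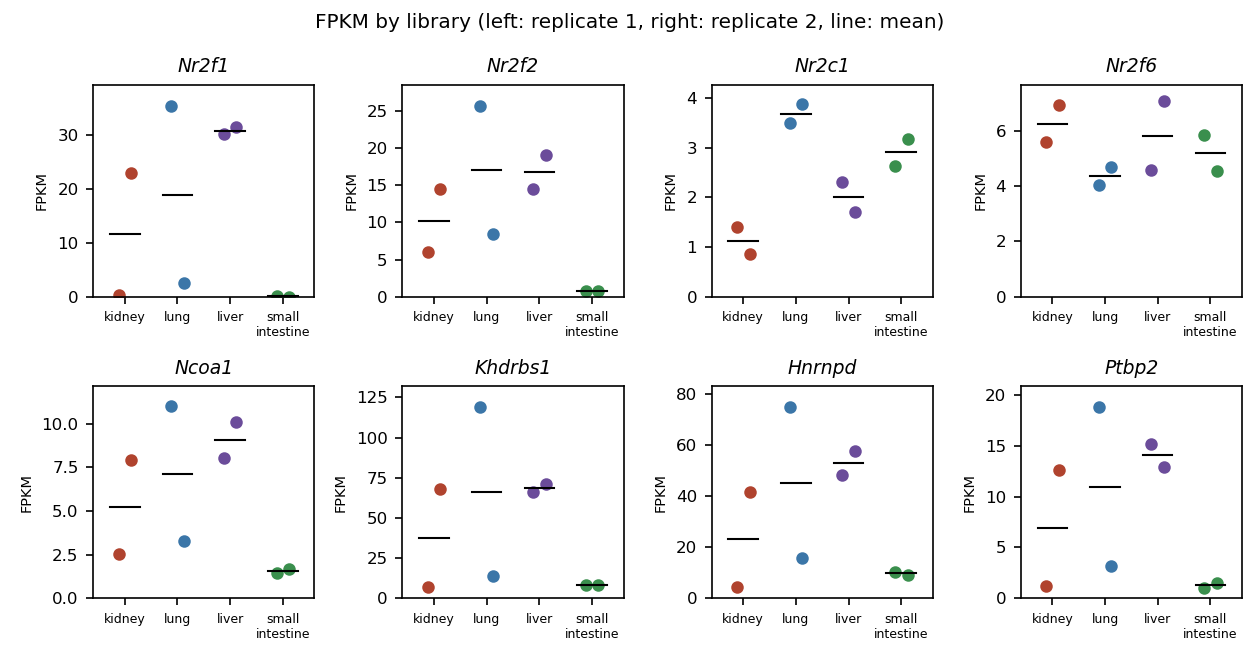
FPKM of 4 receptors of the NR2 group (upper row) and of the co-activator gene Ncoa1 and 3 genes of RNA-binding proteins (lower row) in the 2 libraries of each tissue (points) with their mean (line). Nr2f1, Nr2f2 and the genes of the lower row are higher in kidney replicate 2 and lung replicate 1 than in the other library of the same tissue, while Nr2c1 and Nr2f6 are close between replicates.

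The other NR2 genes were low or even. Nr2f6 was at 4.02 to 7.08 in the 8 libraries and was called in lung after scaling alone (-1.25), with 54.4% of its exon length shared with Ocel1. Nr2c1 was at 3.49 and 3.88 in lung, 2.64 and 3.18 in small intestine, 2.32 and 1.70 in liver, and 1.40 and 0.865 in kidney, and Nr2c2 at 0.300 to 1.48, both orphans known from the testis and called in none of the tissues. For Nr2c2, 31.2% of the exon length is shared with Mrps25 and Gm44249. Nr2e3, known as a receptor of photoreceptor cells, was at 1.05 and 1.02 in small intestine, from 33 and 39 reads, at 0.0692 and 0.120 in kidney, and at 0 in lung and liver. Its log2 difference in small intestine was 0.98 (SE 0.07, adjusted p = 1.42e-05 from limma), just under the threshold. Nr2e1, of neural stem cells, had no read in any library, which allows an FPKM of up to 0.0377 to 0.0882.

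The NR4A receptors, whose genes are switched on within minutes of a stimulus and need no ligand, were highest in lung. Nr4a1 at chr15:101254269-101274795 was at 6.00 and 20.5 in lung and 0.485 to 0.822 in the other 6 libraries, with a log2 difference of 2.87 (SE 0.37, adjusted p = 0.000243 from limma) as deposited and 1.96 after scaling. The lung libraries lay far apart but were both above all others. Its lower call in liver, -1.0, was lost after scaling and when any library other than lung replicate 1 was left out (-0.73 to -1.15). Nr4a2 was at 3.84 and 3.37 in lung, 1.24 and 1.26 in small intestine, and 0.126 to 0.501 in kidney and liver. Nr4a3 was at 1.18 and 1.22 in lung, from 69 and 91 reads, and at 0 to 0.196 elsewhere. After scaling, Nr4a2 and Nr4a3 had log2 differences of 0.76 and 0.63 in lung and were not called. Nr4a1 and Nr4a3 passed the filter through lung alone.

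Other immediate early genes showed a like split between scalings. Of 10 tested, 9 were called higher in lung as deposited and 3 after scaling, against 40.7% and 14.7% of all genes. Log2 differences in lung as deposited were 3.25 for Dusp1, 2.95 for Btg2, 2.83 for Jun and 2.0 for Ier2. In small intestine 6 of the 10 were called higher and 1 lower under both, in kidney none higher and 8 lower (7 after scaling), and in liver none higher and 4 lower (1 after scaling). Of all genes as deposited, 13.7% were called higher in small intestine, and 16.1% lower in kidney and 32.7% in liver. Fos was at 37.2 and 66.4 in small intestine, where Nr4a1 was at 0.820 and 0.643.

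Nr5a2 and Nr0b2 encode a pair known from the control of bile acid synthesis, in which LRH-1, the product of Nr5a2, raises Cyp7a1 and Cyp8b1, and the small partner SHP, the product of Nr0b2, which lacks a DNA-binding domain, holds them down. Nr5a2 at chr1:136842571-136960448 was at 6.84 and 6.86 in liver, 2.61 and 3.34 in small intestine, 0.104 and 0.0818 in lung, and 0.0395 and 0.0588 in kidney. The liver libraries were above all others and the intestinal ones next, and kidney and lung, with 5 to 6 reads a library, did not differ beyond their spread (-0.06, adjusted p = 0.753 from limma). Its log2 difference was 2.25 in liver (SE 0.13, adjusted p = 5.98e-06 from limma), -1.63 in kidney and -1.55 in lung, and all were called under both scalings. Liver exceeded small intestine by 0.99 (SE 0.16, adjusted p = 0.00121 from limma), which misses the threshold of 1, and by 1.76 after scaling.

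Nr5a2 is also a receptor of the exocrine pancreas, and markers of acinar cells were present in the intestinal libraries. The 8 listed genes summed to 2452 and 1126 in small intestine, where all 8 were at 1 or more in both libraries. In the other tissues the sum was 2.70 to 77.2, with 1 gene at 1 or more in both libraries of each tissue, Cela1 at 76.5 and 74.2 in kidney, and Amy2b at 0 in kidney replicate 1 and lung replicate 2. The intestinal library with the higher acinar sum had the lower Nr5a2 value. The part of acinar cells in that value was not tested.

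Nr0b2 at chr4:133553376-133556536 was at 56.0 and 42.4 in liver, 5.19 and 3.59 in small intestine, 1.77 and 2.30 in kidney, and 0.452 and 0.213 in lung. The liver mean was 49.2 ± 9.59 (SD, n = 2), against 4.39 ± 1.13 in small intestine, 2.03 ± 0.371 in kidney and 0.333 ± 0.169 in lung (SD, n = 2 each). Its log2 difference in liver, 4.16 (SE 0.19, adjusted p = 1.80e-06 from limma; exact permutation p = 0.0357, two-sided, the smallest possible), was the largest among the 31 receptors tested in any tissue and was 3.98 to 5.07 over the alternatives that keep all libraries. It was called lower in lung (-2.81) and in kidney (-1.22) under both scalings, but the kidney call was lost with quantile normalization (-0.97) and with rescaling without mitochondrial genes (-0.83). Liver exceeded small intestine by 3.22 (adjusted p = 1.60e-05 from limma), and kidney and small intestine differed by less than the threshold (-0.82, adjusted p = 0.0223).

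Of 4 tested genes that LRH-1 and SHP are known to control, all 4 were called higher in liver, with log2 differences of 7.09 for Slc10a1, 6.44 for Cyp8b1, 5.92 for Abcb11 and 2.57 for Cyp7a1, and 3 were lower in each of the other tissues (4 after scaling). Of all genes as deposited, 6.56% were called higher in liver, and 16.1% lower in kidney, 8.26% in lung and 11.3% in small intestine. Cyp7a1, the first enzyme of bile acid synthesis, was at 2.98 and 7.87 in liver and at 0 in the other 6 libraries. Cyp8b1, which sets the kind of bile acid made, was at 93.4 and 152 in liver and at 1.32 or less elsewhere.

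Nr6a1, a receptor of germ cells and the early embryo, was at 0.219 to 1.40 in the 8 libraries and called in none of the tissues, and liver and small intestine did not differ beyond their spread (-0.22 as deposited and 0.29 after scaling). Nr5a1 and Nr0b1, the receptors of adrenal and gonadal steroid formation, did not pass the filter. Nr5a1 had 1 read in kidney replicate 1 and 2 in small intestine replicate 1, and Nr0b1 had none in any library, which allows an FPKM of up to 0.0774 to 0.181. The 7 markers of the adrenal cortex, which lies beside the kidney, summed to 0.860 and 0.253 in kidney and 0.471 to 2.07 elsewhere, mostly Star, and Cyp11b1 and Cyp11b2 were at 0 in all 8 libraries.

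Further receptors and partners, taken from lists and not from the 40, are given for context. Of 8 other nuclear receptors tested, 4 were called higher in kidney (among them Vdr, Hnf4a and Nr1h4), 2 in liver (3 after scaling) and 3 in small intestine, and 2 were lower in liver and 4 in lung (5 after scaling). The bile acid receptor gene Nr1h4, which raises Nr0b2, was at 30.3 and 30.4 in kidney, 11.9 and 14.6 in small intestine, 24.4 and 32.0 in liver, and 0.222 and 0.280 in lung, while Nr0b2 was at 1.77 and 2.3 in kidney. Vdr, the vitamin D receptor gene, was at 63.8 and 77.6 in small intestine, 40 and 25.5 in kidney, and 0.155 to 1.27 in liver and lung. Of 12 co-activator genes, 1 was called higher in kidney, 2 in lung and 1 in small intestine, and 1 lower in lung and 1 in small intestine. After scaling none was higher and 2 were lower in lung, and 3 were higher in liver, where none was called as deposited. Of 7 co-repressor genes, 2 were higher in small intestine and 2 lower in liver, where none was called after scaling.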

How the data were processed

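Polyadenylated RNA of 4 tissues was sequenced, 2 libraries each. The methods give bbduk for the index filter and STAR 2.5.3a for mapping to an Ensembl mouse genome. The authors computed the deposited FPKM values with DESeq2, and the program that counted reads and its use of strand are not given in the sources used here. Of the symbols, 51844 (99.3%) matched a gene of GENCODE M21 on GRCm38, which gave coordinates and exon lengths. Multiplied by exon length, 94.5% to 96.1% of low values, up to 50 reads, were whole reads within 0.02, which gave the depth.

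Groups came from the sample labels. Values were analysed as log2(FPKM + 1) for the 16328 genes at 1 or more in at least 2 libraries, with limma 3.58.1 (lmFit, eBayes with a trend) in R 4.3.3, all libraries in one fit, a contrast of every tissue with the average of the remaining 3, pairs of tissues, and an F test. P-values were adjusted over all genes by the Benjamini-Hochberg method. The fit was also run on simulated data that lack the shifts between tissues seen here, so that run does not bear on the calls. Single genes were compared by an exact permutation test of the difference in means over all ways to choose 2 of 8 libraries. Python 3.11.15, pandas 2.3.3, numpy 2.4.6 and matplotlib 3.10.9 were used for values and figures. Promoter windows came from RefSeq (GRCm38.p6). Overlap of exons was taken from the annotation on either strand.

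The members, the gene lists and the marker lists were chosen with earlier results of these data known. All receptors are accounted for by role. Receptors called higher in a tissue are given in every library (up to 6 by size, others by range), those called lower by count and up to 4 examples, and other lists by counts with up to 4 genes by the largest difference where the receptor was highest. Genes named beyond this, such as those with the library pattern of Nr2f1 and list genes named for their value in another tissue, were chosen after their values were seen. Alternatives changed the pseudocount, filter, scaling, test, block and libraries. Some genes of the lists are not reported here.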

Additional observations from a re-analysis of the deposited data

How the results depend on the processing

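No call of a receptor reversed under any alternative. With all 8 libraries, the number of receptors called higher in kidney (2 as deposited) was 4 with a pseudocount of 0.1, median-of-ratios scaling, quantile normalization, rescaling to the same sum without mitochondrial genes, or limma-voom on recovered reads, and the number called lower (4) was 9 with the pseudocount of 0.1 or limma-voom, 2 with quantile normalization and 16 without the threshold of 1. In lung the number called higher (8) was 2 with median-of-ratios, 3 with quantile, 5 without mitochondrial genes and 13 without the threshold, and the number called lower (5) was 8 with the pseudocount of 0.1 or limma-voom, 10 with median-of-ratios, 9 with quantile and 11 without the threshold. In liver the number called lower (7) was 13 with the pseudocount of 0.1, 3 with median-of-ratios, 2 with quantile and 15 without the threshold. In small intestine the number called higher (3) was 10 with the pseudocount of 0.1 or limma-voom and 11 without the threshold. The higher count in liver, the lower count in small intestine and the number that differ among tissues stayed within 1.5 times. Shares of all genes called are given as deposited and with median-of-ratios scaling alone. The counts under other settings or with libraries left out thus do not tell a shift of receptors from a shift of all genes. Over the 42 single calls, 32 passed with median-of-ratios, 29 with quantile, 35 without mitochondrial genes, 38 without the filter and all 42 with the pseudocount of 0.1. With 1 library left out, receptors called higher numbered 2 to 4 in kidney, 7 to 8 in lung, 6 to 9 in liver and 3 to 6 in small intestine, and those called lower 4 to 7, 4 to 6, 5 to 7 and 3 to 5. Without kidney replicate 2 and lung replicate 1 together, chosen after seeing the data, 7 were called lower in kidney.

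The methods take all 4 tissues from each mouse but do not tie a replicate number to a mouse, so the numbers were not read as pairs. Differences between replicates 1 and 2 correlated at -0.22 to 0.05 between tissues. This cannot tell whether a number marks an animal, since animals need not differ alike in unlike tissues. With a replicate block the counts of receptors called were the same except in liver, where 8 were called higher and the call of Nr2f1 was lost. The number of libraries, 2 per tissue, limits all tests, and receptors under 3 reads were not detectable at this depth.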
